A study of Mus musculus with 12 samples.

Results

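The genes described here are 10 RNA-binding proteins, the 4 members of the Elavl (Hu) family, Nova1 and Nova2, Celf3 and Celf4, and Rbfox1 and Rbfox3. They were chosen by name, with their tumor against normal lung values in these same libraries already known, so that contrast is described for them without a test. All 10 were found among the 30399 genes of the deposited table. RNA sequencing was used to compare 5 normal mouse lungs with 7 tumors from a mouse lung cancer model made by CRISPR/Cas9 editing without a viral vector. The labels give each sample's tissue and no more: they do not state the edited genes, the strain, the age, the time of collection or whether each sample came from a separate animal. Tumors 3 and 4 have the same number in their titles (159), as do tumors 5, 6 and 7 (201). The titles of tumors 3 to 6 also name the lung, and those of tumors 1 and 7 the trachea, in Spanish. The p-values below therefore measure the spread between these libraries, which may in part be technical or within 1 animal.

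Elavl proteins bind AU-rich stretches of messenger RNA and control its stability, splicing and translation. Elavl1, also called HuR, is made in nearly all cells, whereas Elavl2, Elavl3 and Elavl4 (HuB, HuC and HuD) are largely restricted to neurons, and Elavl2 is also made in germ cells. The neuronal Hu proteins first became known as the targets of anti-Hu antibodies in patients with paraneoplastic neurological disease, most often with small cell lung carcinoma, and the Nova proteins as the targets of anti-Ri antibodies. Nova, Celf and Rbfox proteins are sequence-specific regulators of alternative splicing: Nova binds YCAY elements, Rbfox binds GCATG elements, and Rbfox3 is the neuronal nuclear antigen NeuN. Rbfox1 is also made in heart and skeletal muscle.

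Values are normalized counts, read counts divided by a factor for each library, and are not corrected for gene length. Recovered totals ran from 11126432 to 17032234 reads in normal lungs and from 13093843 to 24217633 in tumors, so 3 reads were worth at most 4.85 normalized counts in a normal lung and 3.57 in a tumor. Of the 23674 genes tested with limma, 61.5% were called at an adjusted p under 0.05 in either direction, 31.4% higher and 30.1% lower in tumors. Neuroendocrine markers such as Chga and Syp summed to 297 to 425 normalized counts in normal lungs and 38845 to 140763 in tumors, and lung epithelial markers such as Sftpc and Scgb1a1 to 284480 to 509783 and 486 to 3221. Tumor 7 stood apart, with cardiac markers at 43952 against 899 to 3396 in the other tumors and leukocyte markers at 13095 against 383 to 3450. Y-linked genes were present in 4 of 5 normal lungs and 1 of 7 tumors, so sex and tissue are partly confounded. In bulk samples, fewer cells of a type and less RNA per cell cannot be told apart.

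Elavl1, the member made in most cells, was at 1272, 1477, 1557, 1614 and 1512 normalized counts in normal lungs 1 to 5. In tumors the lowest value was 1971, the median 3031 and the highest 3727, so every tumor lay above every normal lung, by a modest margin. The mean was 1486 ± 130 (SD, n = 5) in normal lungs and 2867 ± 620 (SD, n = 7) in tumors, a log2 difference of 0.92 (SE 0.16). Groups that did not overlap with tumors on top were found for 20.1% of all genes tested, and with tumors below for 18.4%. Among the 10 members, all of which passed the filter on low values, 9 had tumors above all normal lungs and 0 below. Because these genes were chosen with this contrast known, nothing is read from that count.

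Elavl3, the HuC protein of differentiated neurons, showed the widest gap of the 10. It was at 2.58, 2.15, 4.85, 1.41 and 0 normalized counts in normal lungs 1 to 5, which corresponds to 2, 2, 3, 1 and 0 reads. In tumors it ran from 7068 in tumor 7 through a median of 14383 to 21081 in tumor 2. Because no normal lung exceeded 3 reads, the ratio was taken against the highest 3-read floor per library, and the tumor mean was at least 3105-fold higher. The lowest tumor was at least 1459-fold above that floor. The log2 difference of 12.35 (SE 0.38) depends on the pseudocount of 1 and is 13.38 with a pseudocount of 0.1.

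Elavl4, the HuD protein that stabilizes mRNAs of axon growth such as Gap43, was at 12.9, 7.53, 0, 12.7 and 10.3 normalized counts in normal lungs, from 0 to 10 reads. Tumors ran from 1968 in tumor 2 through a median of 2798 to 4424 in tumor 1. Every tumor was far above every normal lung, with a log2 difference of 8.66 (SE 0.56), which was 7.95 without normal lung 3 and 9.42 with a pseudocount of 0.1. Elavl2, the HuB protein, differed from the rest in its spread. It was at 1.29, 8.60, 4.85, 5.64 and 17.2 normalized counts in normal lungs, and at 0, 1553, 161, 54.8, 93.0, 91.6 and 195 in tumors 1 to 7. Tumor 1 had no Elavl2 read, below every normal lung, 5 tumors lay between 54.8 and 195, and tumor 2 stood at 1553. The groups overlapped, and the log2 difference of 3.56 (SE 1.31) was 4.62 without tumor 1 and 2.85 without tumor 2.

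**Figure D1:**
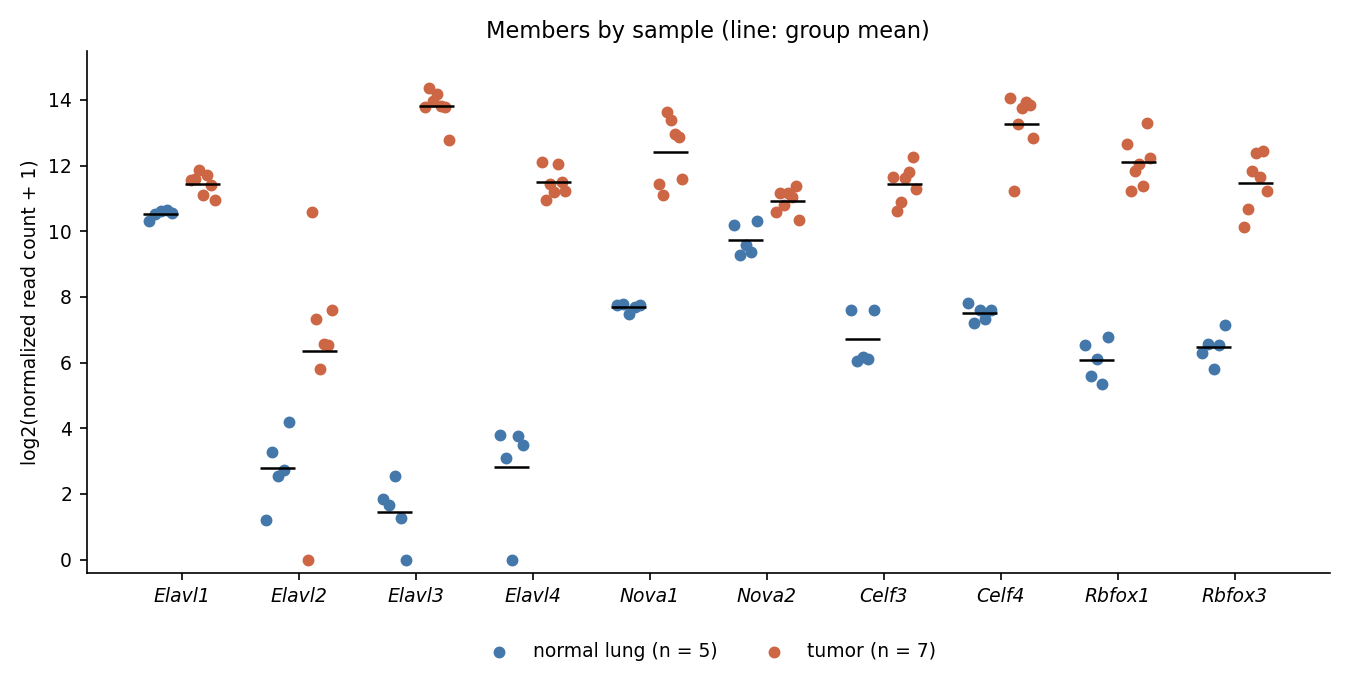
Normalized count of each of the 10 genes in 5 normal lungs and 7 tumors, on a log2(value + 1) axis, with 1 point per sample and a line at each group's mean. Tumors lie above all normal lungs for 9 genes; for Elavl2, tumor 1 is at 0 and tumor 2 at 1553.

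The make-up of the Elavl family differed between the tissues once values were divided by exon length. Per kilobase of exon, Elavl1 made up 97.3% to 99.2% of the family in normal lungs and 6.35% to 11.3% in tumors (median 9.27%). Elavl3 made up 61.0% to 80.4% in tumors and Elavl4 9.35% to 26.3%, while Elavl2 reached 4.78% in tumor 2 and was at most 1.39% in the other tumors. The 3 neuronal members together stood at 0.00856 to 0.0274 times the Elavl1 level in normal lungs and at 7.84 to 14.8 times in tumors. The family sum was 146.3 ± 12.5 normalized counts per kilobase (SD, n = 5) in normal lungs and 3054 ± 682 (SD, n = 7) in tumors, so the smaller Elavl1 share came with a higher, not a lower, Elavl1 level. Tumor 7, where the neuronal sum was lowest (1491 per kilobase), also had the lowest Elavl1 level, and its ratio of 7.84 was close to that of tumor 3 (8.02).

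**Figure D2:**
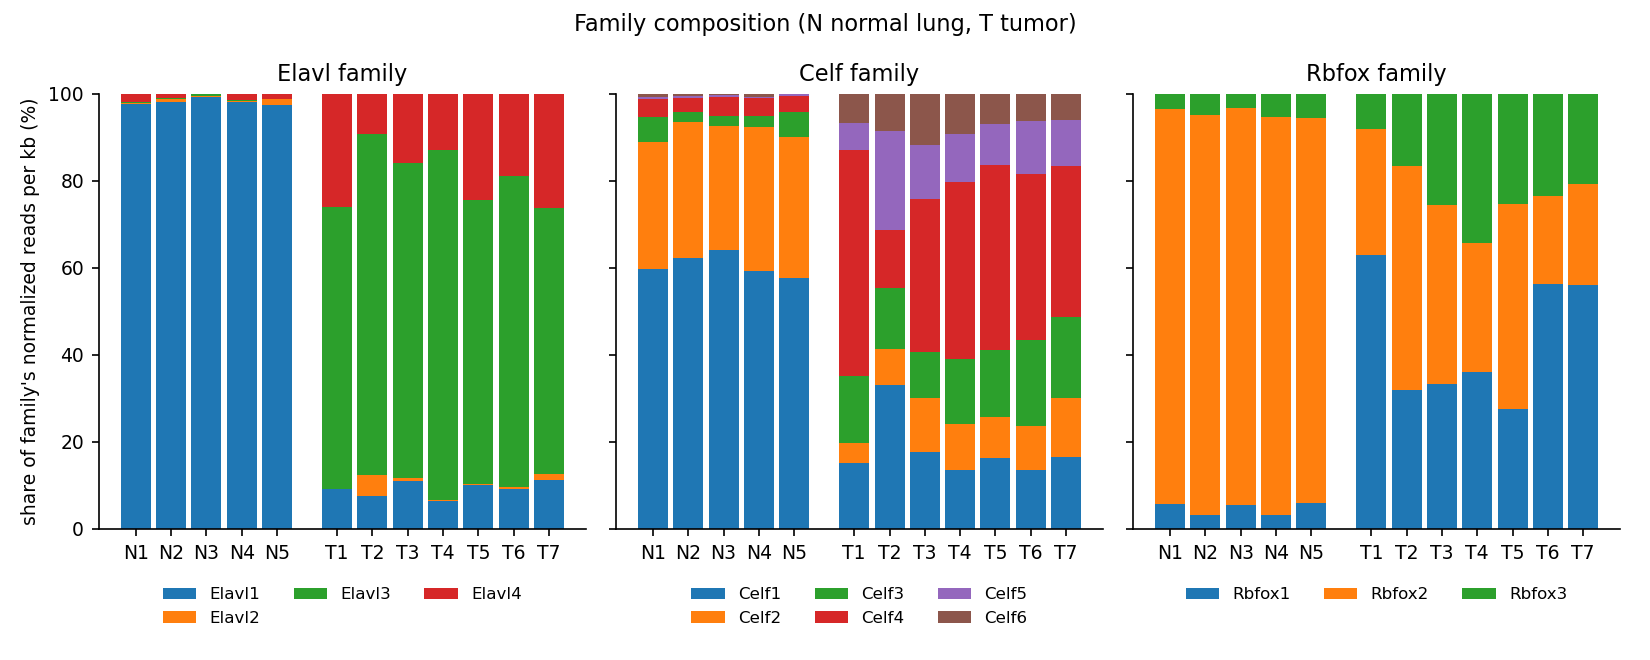
Share of each gene in the summed level of its Elavl, Celf or Rbfox family per kilobase of exon, in percent, 1 bar per normal lung (N1 to N5) or tumor (T1 to T7). Elavl1 fills 97.3% or more of the Elavl bar in normal lungs and 11.3% or less in tumors.

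The 2 Nova genes differed in their level in normal lung and in their gap to tumors. Nova1 was at 214, 221, 176, 206 and 216 normalized counts in normal lungs, a narrow range, and ran in tumors from 2193 in tumor 2 through a median of 7449.6 to 12767 in tumor 3. Tumors 1, 2 and 7 lay at 3059 or lower and the other 4 at 7449.6 or higher, with a log2 difference of 4.73 (SE 0.41) from normal lung. Nova2 was already at 1157, 618, 762, 666 and 1273 in normal lungs, where lungs 1 and 5 were the high ones, and ran from 1296 through 2131 to 2684 in tumors. The lowest tumor, tumor 7, was only just above normal lung 5, and the log2 difference was 1.19 (SE 0.23), nearer to that of Elavl1 than to those of the other neuronal genes. Per kilobase, Nova1 held 14.0% to 25.5% of the Nova sum in normal lungs and 47.7% to 87.2% in tumors.

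Promoter sequences are shown for the Elavl and Nova pairs whose members differ most, Elavl1 beside Elavl3 and Nova2 beside Nova1. They run from 250 bases before to 50 after the annotated start, 5′ to 3′ on the gene's strand, from RefSeq on GRCm38.p6, which is not the build of the counts. Elavl1 is at chr8:4325051-4325350 (minus strand), Elavl3 at chr9:22051974-22052273 (minus), Nova1 at chr12:46818718-46819017 (minus) and Nova2 at chr7:18925638-18925937 (plus). Capitals mark the E-box CAGCTG, bound by proneural factors, and the E-box CAGGTG, or its reverse complement CACCTG.
Elavl1: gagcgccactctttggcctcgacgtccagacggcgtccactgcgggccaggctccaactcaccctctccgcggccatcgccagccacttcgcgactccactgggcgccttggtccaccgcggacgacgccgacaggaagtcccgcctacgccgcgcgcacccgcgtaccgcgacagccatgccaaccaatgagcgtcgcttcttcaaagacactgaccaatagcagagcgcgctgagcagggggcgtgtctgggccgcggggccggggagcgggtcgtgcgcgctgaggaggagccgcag
Elavl3: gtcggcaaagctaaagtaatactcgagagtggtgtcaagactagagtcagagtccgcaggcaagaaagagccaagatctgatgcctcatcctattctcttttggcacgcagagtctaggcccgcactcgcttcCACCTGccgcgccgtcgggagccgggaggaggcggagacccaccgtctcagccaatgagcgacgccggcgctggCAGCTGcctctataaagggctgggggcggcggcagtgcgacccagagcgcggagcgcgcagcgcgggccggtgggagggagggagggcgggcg
Nova1: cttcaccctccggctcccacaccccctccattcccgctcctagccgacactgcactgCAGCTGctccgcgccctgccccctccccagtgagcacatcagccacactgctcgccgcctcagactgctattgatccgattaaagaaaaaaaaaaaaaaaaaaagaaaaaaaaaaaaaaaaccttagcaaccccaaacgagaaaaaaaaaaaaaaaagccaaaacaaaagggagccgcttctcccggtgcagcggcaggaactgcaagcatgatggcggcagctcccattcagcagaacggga
Nova2: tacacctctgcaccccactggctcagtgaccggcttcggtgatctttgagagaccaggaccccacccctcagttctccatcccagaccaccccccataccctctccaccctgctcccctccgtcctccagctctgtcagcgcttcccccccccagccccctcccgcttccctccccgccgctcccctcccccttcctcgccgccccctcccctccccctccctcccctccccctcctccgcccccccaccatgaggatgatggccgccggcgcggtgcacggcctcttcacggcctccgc
Elavl3 held 1 of each E-box and Nova1 held 1 CAGCTG, while Elavl1 and Nova2 held neither in these windows. RefSeq windows of 9 of the 10 members were searched, 24 in all, several of which overlap within a gene. Celf4 was left out of this search, so the counts below say nothing about its promoter. The E-box CAGCTG was found in 11 of the 24, belonging to Celf3, Elavl2, Elavl3, Elavl4, Nova1 and Rbfox1, against 16.3% of all 32851 windows. The E-box CAGGTG was found on either strand in 7 of 24 against 20.2%. Letters from the left part of the element bound by the repressor REST, TTCAGCACC, were in 0 of 24 against 0.371%, and those from its right part, GGACAG, in 3 against 22.2%. The GC box GGGCGG was in 10 against 35.7%, the TATA box TATAAA in 3 against 13.6%, the CCAAT box in 16 against 37.4%, and the cAMP response element TGACGTCA in 3, all of Celf3, against 1.79%. All motifs were searched on both strands, and the E-boxes differ from each other at 1 base and were counted apart. A match describes letters and is not a binding site, and no match says only that the letters are not in the window.

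Celf3, a brain-enriched splicing factor, was at 192, 65.6, 71.1, 67.7 and 194 normalized counts in normal lungs and ran in tumors from 1575 in tumor 2 through 3166 to 4891 in tumor 6. Its log2 difference was 4.74 (SE 0.36), and normal lungs 1 and 5 were again the high ones. Celf4, which binds many synaptic mRNAs and whose loss causes seizures in mice, was at 226, 146.2, 194, 161 and 192 in normal lungs. Tumors ran from 2396 in tumor 2, far below the next at 7322, through 13703 to 17077 in tumor 1, a log2 difference of 5.76 (SE 0.41). Among the 6 Celf genes, Celf1 took 57.7% to 64.0% of the level per kilobase in normal lungs and 13.5% to 33.2% in tumors, and Celf4 took 13.5% to 51.8% in tumors.

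Rbfox1 was at 91.6, 47.3, 67.8, 39.5 and 109 normalized counts in normal lungs and ran in tumors from 2397 in tumor 2 through 4252 to 10055 in tumor 6. All tumors were above all normal lungs, with a log2 difference of 6.03 (SE 0.36). Heart and skeletal muscle also make Rbfox1. Tumor 7, with the highest cardiac marker sum (43952), had Rbfox1 at 4858, and tumor 6, with the highest Rbfox1, had the next highest cardiac sum of the tumors (3396). Skeletal muscle markers summed to 70.4 to 1590.4 in tumors, highest in tumor 2, where Rbfox1 was lowest. The part of muscle in these values was not tested. Rbfox3 was at 77.4, 93.5, 54.9, 91.7 and 141 in normal lungs and ran from 1113 in tumor 1 through 3219 to 5553 in tumor 6, a log2 difference of 5.01 (SE 0.38). Per kilobase, the widely made Rbfox2 held 88.4% to 91.8% of the Rbfox sum in normal lungs and 20.3% to 51.3% in tumors, and Rbfox1 held 27.6% to 62.8% in tumors.

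Normal lungs 1 and 5 were the 2 highest normal lungs for Nova2, Celf3 and Rbfox1. They also had the 2 highest neuroendocrine marker sums of the normal lungs (396 and 425), whose part in the values was not tested. That order rests largely on Ncam1, at 151 and 169 in normal lungs 1 and 5 against 81.8 to 98.5 in the others. Other neuroendocrine markers were ordered differently, with Insm1 and Calca highest in normal lung 3 and Uchl1 in normal lung 4. Cardiac markers summed to 1865 and 4863 in normal lungs 1 and 5, and to 1474, 3141 and 505 in normal lungs 2, 3 and 4. The part of heart muscle in the Rbfox1 values of normal lungs was not tested either. Read counts of Elavl1, Elavl3 and Celf3 carry an added uncertainty, because their annotated spans overlap Ccl25, Gm49318 and Riiad1. Whether counting used the strand is not stated, and strand would not separate Elavl3 from Gm49318, which lie on the same strand. Gm49318 itself had 0 to 9.20 normalized counts in normal lungs, a range that reaches above that of Elavl3 there. In tumors it had 24.98 to 242, far below Elavl3, and Ccl25 had 472 to 1149, below the lowest Elavl1 value in tumors. Riiad1 had 120 to 377 in normal lungs, a range that reaches above that of Celf3 there, and 132 to 448 in tumors, below every Celf3 value.

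The order of the 10 genes per kilobase differed between the tissues. In normal lungs Elavl1 (143) and Nova2 (107) led, followed by Nova1 (23.6), Celf3 (21.6), Celf4 (21.4), Rbfox1 (16.2) and Rbfox3 (15.8), and Elavl4 (1.61), Elavl2 (0.905) and Elavl3 (0.319) were last. Only the steps from Nova2 to Nova1 and from Rbfox3 to Elavl4 separated neighbours whose ranges did not overlap. In tumors the order of mean levels was Elavl3 (2183), Celf4 (1343), Rbfox1 (1115), Nova1 (768), Rbfox3 (564), Elavl4 (558), Celf3 (544), Elavl1 (277), Nova2 (240) and Elavl2 (36.9). The ranges of every pair of neighbours overlapped in tumors, but Elavl3 was above Celf4 and Nova2 above Elavl2 within each of the 7 tumors. Elavl3 thus went from the last place to the first, and Elavl1 from the first to the eighth.

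The members also differed in how much they varied among tumors. On the log2 scale the SD over 7 tumors was 0.33 for Elavl1, 0.37 for Nova2, 0.44 for Elavl4 and 0.50 for Elavl3, against 0.56 for Celf3, 0.72 for Rbfox1, 0.86 for Rbfox3, 0.999 for Celf4, 1.03 for Nova1 and 3.20 for Elavl2. The median over all genes tested was 0.63. Tumor 2 was the lowest tumor for 5 members, tumor 7 for 3 and tumor 1 for 2, whereas tumor 6 was the highest for 4. Tumor 2 had the lowest Elavl4, Nova1, Celf3, Celf4 and Rbfox1 and yet the highest Elavl2 and Elavl3. Tumor 1, with no Elavl2 and the lowest Rbfox3, had the highest Elavl4 and Celf4.

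**Figure D3:**
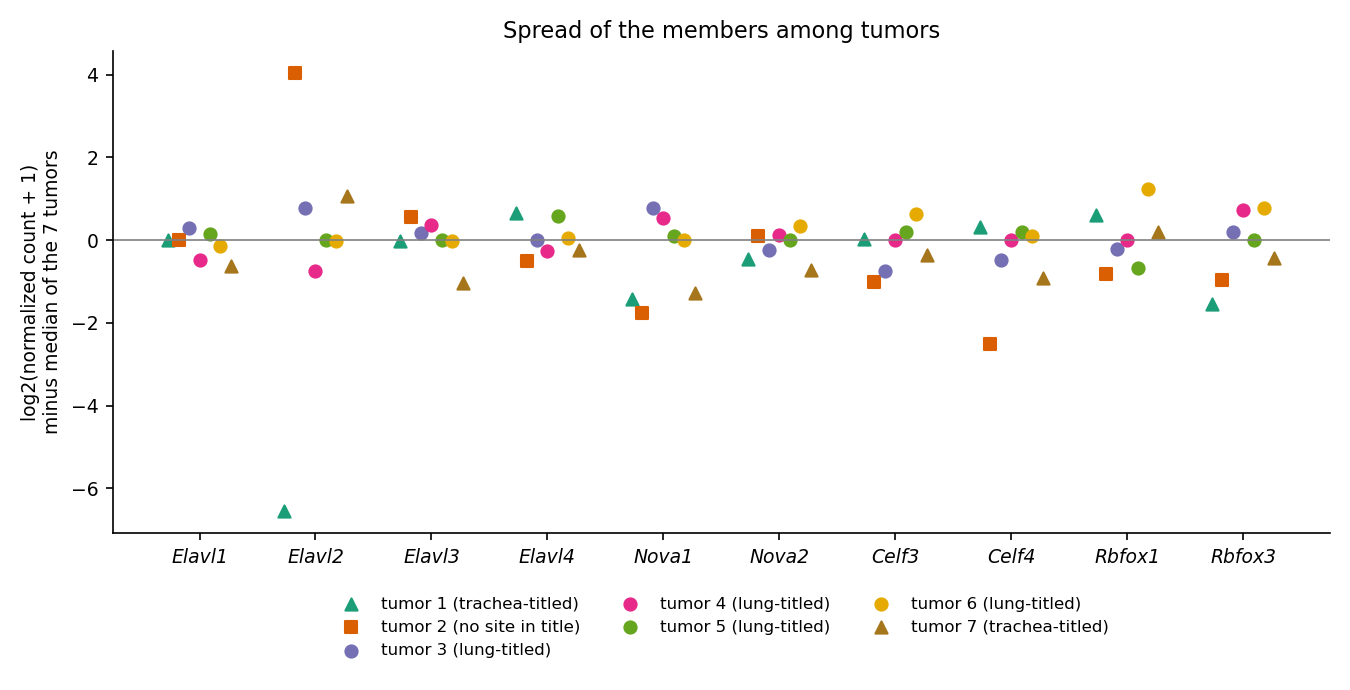
Deviation of each tumor from the median of the 7 tumors for each of the 10 genes, in log2(value + 1), 1 point per tumor, with the point's shape giving the site in the title. Elavl1 and Nova2 stay close to the median (SD 0.33 and 0.37), and Elavl2 spreads widest (SD 3.20).

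Tumors that share a title number had smaller average differences than the other pairs for some members and not for others. Over the 4 pairs with the same number, Elavl2 differed by 0.92 log2 units on average, against 4.05 over the 17 other pairs, and Nova1 by 0.75 against 1.34. For Elavl1 the values were 0.57 and 0.35, and for Rbfox1 1.02 and 0.84. Tumors 1 and 2 share their number with no other tumor, so they entered only the other pairs. Their Elavl2 lay -6.55 and 4.05 log2 units from the median of the 7 tumors, against -0.75 to 1.06 in tumors 3 to 7. Their Nova1 lay at -1.42 and -1.76, against -1.28 to 0.78. The averages for Elavl2 and Nova1 therefore do not show that a shared number goes with closer values. All these averages are descriptions, since pairs share tumors and the meaning of the number is not stated.

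Tumors titled trachea (1 and 7) were then compared with those titled lung (3 to 6), a contrast that played no part in choosing the genes. At an adjusted p under 0.05, limma called 0 of the 10 members and 0% of the 23282 genes tested, although 2086 genes had an unadjusted p under 0.05; the count tests were not run on this contrast. Nova1 was at 2784 and 3059 in the trachea-titled tumors and at 12767, 10839.7, 7925 and 7449.6 in the lung-titled ones, with no overlap, a log2 difference of -1.70 (SE 0.27, limma adjusted p = 0.317). Rbfox3 was at 1113 and 2376 against 3685, 5352, 3219 and 5553, a log2 difference of -1.41 (SE 0.37, limma adjusted p = 0.422). Nova2 was at 1541 and 1296 against 1794, 2322, 2131 and 2684, a log2 difference of -0.64 (SE 0.23, limma adjusted p = 0.499). All 3 were also lower in tumor 7 than in tumors 5 and 6, which carry the same title number. This was not particular to them, since Elavl1, Elavl3, Elavl4, Celf3 and Celf4 were lower in tumor 7 as well. Elavl2 was higher in tumor 7 than in tumors 5 and 6, and Rbfox1 lay between them.

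The other 7 members had limma adjusted p-values between 0.594 and 0.921 in this contrast. Elavl3 differed by -0.65 (SE 0.31) and Elavl1 by -0.27 (SE 0.29), and the values of the 2 groups overlapped for both genes. Elavl2 differed by -2.75 (SE 1.82, limma adjusted p = 0.677) with both trachea-titled tumors, which stood at 0 and 195. Without tumor 7 it differed by -6.56 with a limma adjusted p of 0.0115, against 0.380 to 0.886 under the other alternatives, and limma then called 290 of 22947 genes, 74 higher and 216 lower. That comparison sets tumor 1 alone against 4 tumors and assumes that it varies as they do. Tumor 1 was also the 1 tumor with Y-linked expression, and tumor 7 the one with high cardiac and leukocyte markers.

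Splicing regulators related to the members moved in both directions. Of 20 paralogs and other regulators of neural splicing, 14 rose, 4 fell and 2 did not pass the limma test. The median log2 difference was 1.04 against 0.04 over all genes tested, of which 31.4% were called higher and 30.1% lower. This list and those below were chosen with earlier results of these data known, so their calls are descriptions and not independent support. The neural microexon factors Srrm3 and Srrm4 rose by 9.80 (SE 0.44) and 8.72 log2 units, from at most 12.9 and 1.29 normalized counts in normal lungs to 2109 to 5915 and 301 to 982 in tumors. Celf5, a further neuronal Celf gene, rose by 7.12, the neural stem cell protein Msi1 by 7.04 and Celf6 by 6.56. The widely made paralogs rose far less, Celf1 by 0.78, Celf2 by 0.89 and Rbfox2 by 1.38, and Ptbp2, the neural polypyrimidine tract binding protein, rose by 2.23 against 0.77 for Ptbp1. Of the 4 that fell, Qki, which acts in glia and in mesenchymal cells, changed by -2.21, Mbnl1, a splicing factor of muscle differentiation, by -1.57, Rbms3 by -1.55 and Mbnl2 by -0.43. The call of Mbnl2 did not hold when libraries were scaled to equal totals or quantile normalized, nor that of Celf2 when tumors with the same title number were averaged.

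**Figure D4:**
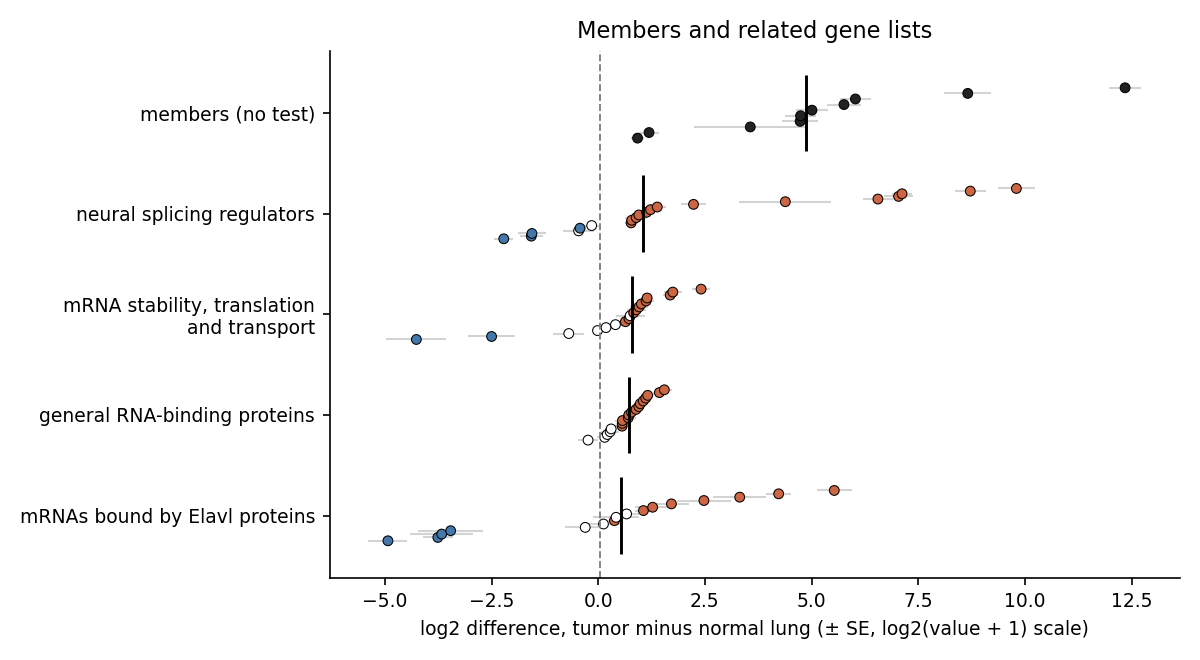
Log2 difference, tumor minus normal lung, for the 10 members and for each gene of the 4 lists, 1 point per gene with its SE. Upright lines mark each list's median and the dashed line that of all genes tested (0.04), and open points did not pass the test. The neuronal members center on 5.01, the general RNA-binding proteins on 0.72, near Elavl1 at 0.92.

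Among RNA-binding proteins made in most cells, 19 of the 20 listed were tested and Srsf2 was not analysed here. Of these, 14 rose, 0 fell and 5 did not pass the test, with a median of 0.72 and a range of -0.24 to 1.55. The shares over all genes tested were 31.4% higher and 30.1% lower. U2af1, which recognizes the 3′ splice site, rose by 1.55, Hnrnpa1 by 1.43, Srsf7 by 1.16 and Srsf1 by 1.11. The log2 difference of Elavl1, 0.92, lay within this range, whereas the 9 neuronal members had a median of 5.01 and only Nova2, at 1.19, lay inside it.

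Of 18 proteins that control the stability, translation or transport of mRNA, several through AU-rich elements, 11 rose, 2 fell and 5 did not pass the test. Their median was 0.79, and over all genes tested 31.4% were called higher and 30.1% lower. The dendritic transport protein Stau2 rose by 2.41, the translational repressor Tia1 by 1.75, Hnrnpd (AUF1) by 1.69 and Khsrp by 1.15. The 2 that fell were Zfp36l1, with a log2 difference of -4.26, and Zfp36 (tristetraprolin), with -2.50, both of which promote decay of AU-rich mRNA. Zfp36 was at 2244, 3796, 3595, 4082 and 3664 normalized counts in normal lungs and at 274 to 865 in tumors 1 to 6, but at 4221 in tumor 7, above every normal lung. Tumor 7 also had the highest Zfp36l1 of the tumors (2914 against 46.6 to 590.3) and the highest leukocyte marker sum, whose part in these values was not tested.

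Messenger RNAs described as bound by Elavl proteins did not move one way. Of 16, 8 rose, 4 fell and 4 did not pass the test, with a median of 0.54. Since 31.4% of all genes tested were called higher and 30.1% lower, movement both ways is not particular to this list. The mitotic cyclin Ccnb1 rose by 5.53, Ccna2 by 4.23, the kinase subunit Camk2a by 3.32 and Mycn by 2.48, whereas Bdnf changed by -4.93, Vegfa by -3.76, the inflammatory enzyme Ptgs2 by -3.67 and the cytokine Tnf by -3.46. Gap43, the mRNA best known as bound by HuD, had a log2 difference of 0.66 (limma adjusted p = 0.0558), with an adjusted p of 0.0156 under equal totals, 0.0421 by DESeq2 and 0.0585 by edgeR. Mycn was at 7208 in tumor 2, the tumor with the highest Elavl2 and Elavl3, and at 305 to 698 in the other tumors. Camk2a was at 132 in tumor 2, within its normal lung range of 63.5 to 159, and at 767 to 3358 in the other tumors. Leukocyte marker sums, at 84989 to 165095 in normal lungs and 383 to 13095 in tumors, were mostly Lyz2 in normal lungs. Without Lyz2 the other 7 markers summed to 6300.0 to 11097 in normal lungs, 249 to 1906 in tumors 1 to 6 and 7482 in tumor 7, which lay within the range of normal lungs. The part of leukocytes in the values of Ptgs2 and Tnf was not tested.

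Neurons in the tissue also make these genes. Of 10 markers of peripheral neurons, 7 were measured, and Dbh and Hand2 were under 10 normalized counts in every tumor. The summed list ran from 6.46 to 28.4 in normal lungs and from 242 in tumor 2 and 357 in tumor 1 to 4154 in tumor 3. That sum was mostly Prph and Phox2a in tumors 3 to 7, and the markers did not share 1 order. Th was lowest in tumors 1 and 2 (27.9 and 104), but Chat was lowest in tumor 1 (8.86) and highest in tumor 2 (82.2). Elavl3 was at 21081 in tumor 2, at 14084 in tumor 1 and at 16168 in tumor 3, against a tumor median of 14383. The part of neurons in the members' values was not tested. Schwann and glial markers summed to 12546 to 19279 in normal lungs and 2514 to 6986 in tumors, but most of the sum in normal lungs was Pmp22, which other cells also make. Without Pmp22 the other 7 markers, mostly Mbp, summed to 2158 to 2918 in normal lungs and 2089 to 5717 in tumors.

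By distance between log2 profiles over the 12 samples, each centred on its own mean, the 5 genes most like Elavl3 included the microtubule protein Dcx (2.62), the neurofilament protein Ina (2.98) and the granule protein Chga (2.99). Dcx and Chga also belong to the neuroendocrine marker list. The nearest member was Elavl4, at a distance of 8.01 and rank 89. The 5 genes most like Elavl1 were the splicing protein Nono (0.397), Papss1 (0.443), Ubxn7 (0.478), Rc3h2 (0.485) and the nuclear import receptor Tnpo1 (0.493). The nearest member to Elavl1 was Nova2, at a distance of 1.60 and rank 3160. Such a distance depends largely on the size of the gap between tumors and normal lungs, the contrast known when the members were chosen. Dcx, Ina and Chga had log2 differences of 11.80, 11.84 and 12.02, and the genes nearest to Elavl1 had 0.88 to 1.04. Likeness here does not show that genes are regulated together.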

How the data were processed

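Poly-A RNA from 5 normal lungs and 7 tumors was sequenced as paired ends, per the labels' protocols. The authors' deposited table holds a normalized count signal per gene; featureCounts, DESeq2 and build GRCm39 are named in the submitters' processing notes, while the annotation and strand setting are not given in the sources used here. All values were whole multiples of 1 read's worth in each library (tolerance 0.01), so reads were recovered. Symbols came from GENCODE M21, which named 29982 of 30399 genes, and exon lengths per kilobase from the same annotation.

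On the log2(value + 1) scale, limma 3.58.1 (lmFit, eBayes with trend; R 4.3.3) was fitted to the 23674 genes averaging 1 or more, with Benjamini-Hochberg adjustment over all of them, and genes were called at an adjusted p under 0.05. Log2 differences on this scale understate changes of low genes. Normal lungs and tumors were grouped by the tissue label. Tumors titled trachea and lung were fitted separately. Alternatives were a pseudocount of 0.1, other filters, equal totals, quantile normalization, averaging tumors with the same title number, leaving out libraries, and edgeR 4.0.16 (TMM, quasi-likelihood) and DESeq2 1.42.0 on the recovered reads. Marker sums without Lyz2 or Pmp22 were added after seeing the data. The test was checked on simulated data. Libraries of 1 group differed by more than sampling noise in every pair (chi-square at least 18.4 times its degrees of freedom). The 3-read floors cover counting error only.

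The members and the 4 gene lists were chosen with earlier results of these data known. Genes named are all members, the paralogs of members and up to 4 list genes with the largest log2 difference in each direction. The rule also covers the 5 genes nearest in profile to Elavl3 and to Elavl1. Ptbp1, Ptbp2 and Gap43 were added after their values were seen, as were Zfp36, Mycn and Camk2a values by sample. Some genes that meet this rule are not reported here.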

Additional observations from a re-analysis of the deposited data

Results flagged for a closer look

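In each of the 2 groups the lowest and highest sample was set against the rest for the 10 members and for 4 ratios between members, 28 comparisons in all, of which about 1.4 would stand apart by chance and 3 did. Elavl3 in tumor 7 was the lowest tumor at 12.79 on the log2(value + 1) scale, against 13.78 to 14.36 in the other 6. Elavl4 in normal lung 3 was at 0.0000, with no read, against 3.09 to 3.80 in the other 4 normal lungs. Celf4 in tumor 2 was the lowest at 11.23, against 12.84 to 14.06 in the other tumors. Tumor 7 also had the highest cardiac and leukocyte marker sums, and normal lung 3 the lowest total reads of the normal lungs (11126432); the part of these was not tested.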

How the results depend on the processing

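All 10 members kept the direction of their tumor against normal lung difference under every alternative run. The difference of Elavl3 was 13.38 with a pseudocount of 0.1, and that of Elavl2 ran from 2.85 without tumor 2 to 5.34 with DESeq2. The counts of list genes called stayed within 1.5 times. Of 57 list genes called, none changed sign and edgeR and DESeq2 lost 0 of them. Over all genes, edgeR called 6208 higher and 5476 lower of 18481, and DESeq2 7630 and 6771 of 24467. Equal totals moved the median log2 difference of all genes from 0.04 to 0.24.

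Between trachea- and lung-titled tumors, leaving out 1 tumor at a time gave 0 to 290 called genes, the latter without tumor 7. Over the same settings the log2 difference ran from -0.58 to 0.0427 for Elavl1, -6.56 to 1.06 for Elavl2, -0.33 to 0.56 for Elavl4, -0.43 to 0.0247 for Celf3 and -0.86 to 0.37 for Celf4, so these 5 changed sign. No paired analysis was possible because the labels pair no normal lung with a tumor. Tumor 1 shares its title number with no other tumor, so its site and number cannot be told apart. Depth limits Elavl2, Elavl3 and Elavl4 in normal lungs to 15, 3 and 10 reads at most.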
